A study of Mus musculus with 5 samples.

Results

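The 53 genes described here are interferon-stimulated genes of the mouse, chosen by symbol as the rows of the count and TPM tables that carry one of 53 listed gene names. All 53 were found among the 49315 genes in the table, and all 53 passed the filter on low counts that left 18727 genes for testing. RNA was measured by poly(A) RNA-seq in endothelial cells isolated from mouse lung, in 3 wild-type libraries (WT) and in 2 libraries of an endothelial-specific knockout of TET2 (TET2KO), a dioxygenase that oxidises 5-methylcytosine in DNA. Mice of both genotypes had received angiotensin II, a vasoconstrictor hormone, for 28 days, so every library is from a hormone-treated animal and no untreated sample was compared. The comparison asks how the transcripts of these hormone-treated lung endothelial cell isolates differ when the endothelial cells lack TET2. The labels do not give the promoter that drove the deletion, the deleted exons, the method of cell isolation, the age or sex of the mice, or whether each library is from a separate animal. What the p-values measure is therefore library-to-library spread, some of it possibly technical.

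Interferons are cytokines that switch on antiviral and antimicrobial genes. Type I interferons act through the receptor chains Ifnar1 and Ifnar2 and the kinases Jak1 and Tyk2, and a complex that holds STAT2 and IRF9 then binds the interferon-stimulated response element (ISRE). Interferon-gamma acts through Ifngr1, Ifngr2, Jak1 and Jak2 and leads to the gamma-activated site (GAS), with IRF1 as an early product that acts on further genes. Endothelial cells carry both receptors and line the vessels where leukocytes and circulating pathogens arrive. By textbook knowledge 37 of the 53 genes were classed as type I targets and 13 as GTPases that interferon-gamma induces strongly (7 immunity-related GTPases and 6 guanylate-binding proteins). Irf1, Cxcl9 and Cxcl10 answer to both kinds of interferon and were put in neither class. Many type I targets also respond to interferon-gamma, so the classes are not exclusive.

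The promoters of these genes held the letters of both elements more often than promoters at large. RefSeq windows on GRCm38.p6, from 250 bases before to 50 bases after a transcript start (300 bases), were found for 41 of the 53 members. The ISRE was searched as GAAANNGAAA on both strands, and the GAS as TTCNNNGAA, which reads the same on both strands. A match of one motif may share bases with a match of the other or with a further match of its own. The ISRE letters were present in 25 of the 41 members (61.0%) and in 3.99% of all 27025 genes with a window. The GAS letters were present in 13 of the 41 (31.7%) and in 9.55% of all genes. Among the GTPases with a window, 9 of 10 held an ISRE and 6 of 10 held both motifs. Among the type I targets 15 of 28 held an ISRE and 3 of 28 held both. A match is a description of the letters and does not show that a factor binds there.

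The stretches below, read 5′ to 3′ on the strand of the gene and ending before the transcript start, show the motifs in capitals for members whose values recur in the results. Ifit1 (chr19:34640760-34640838, plus strand), Ifit3 (chr19:34583348-34583441, plus) and Ifit3b (chr19:34607744-34607837, plus) show paired ISREs, while Ifit2 has no ISRE match in its windows. The stretches of Ifit3 and Ifit3b are the same over 94 bases. Isg15 (chr4:156200850-156200921, minus) shows 3 overlapping ISREs, and Slfn5 (chr11:82951922-82951981, plus) a single one. Irf1 (chr11:53769899-53769957, plus) shows a GAS alone. Irgm2 (chr11:58214877-58214947, plus), Tgtp1 (chr11:48992289-48992359, minus) and Tgtp2 (chr11:49064248-49064318, minus) show a GAS followed by an ISRE.
Ifit1: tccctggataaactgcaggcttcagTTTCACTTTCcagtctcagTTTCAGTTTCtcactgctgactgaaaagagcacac
Ifit3: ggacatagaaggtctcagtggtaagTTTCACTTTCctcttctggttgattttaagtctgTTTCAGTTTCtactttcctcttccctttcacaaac
Ifit3b: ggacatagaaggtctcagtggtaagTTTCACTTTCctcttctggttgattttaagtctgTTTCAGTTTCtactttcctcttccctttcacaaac
Isg15: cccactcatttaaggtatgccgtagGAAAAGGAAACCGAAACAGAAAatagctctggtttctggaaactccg
Slfn5: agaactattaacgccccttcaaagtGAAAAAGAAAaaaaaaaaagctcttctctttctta
Irf1: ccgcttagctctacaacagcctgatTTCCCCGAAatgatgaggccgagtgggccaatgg
Irgm2: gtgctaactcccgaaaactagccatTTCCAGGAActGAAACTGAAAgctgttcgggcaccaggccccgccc
Tgtp1: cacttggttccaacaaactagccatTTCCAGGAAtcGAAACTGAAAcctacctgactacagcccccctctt
Tgtp2: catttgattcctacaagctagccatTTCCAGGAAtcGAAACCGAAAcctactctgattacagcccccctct

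Some libraries stood apart or went against their labels in ways that bear on these genes. In the authors' deposited comparison the library labelled WT replicate 3 was placed with the TET2KO libraries. The log2 fold changes of that table equalled, within 0.05, the log2 ratio of the mean signal of WT replicate 3 and both TET2KO libraries over WT replicates 1 and 2 for all 12175 genes with a mean signal of at least 100, and the ratio of the labelled groups for 16.3% of them. The labels were kept for every test here, and values without WT replicate 3 are given for the counts, the classes and some of the members that it moved. The share of counts on endothelial markers was 0.563%, 0.406% and 0.743% for the WT libraries in order, against 0.996% and 1.07% for TET2KO. All 20 endothelial markers had a log2 fold change above 0, with a median of 0.75, while all 12 pan-leukocyte markers were below 0 (median -0.42). Pan-leukocyte markers held 0.761%, 0.918% and 0.651% of counts in WT, against 0.588% and 0.599% in TET2KO. That is more than the endothelial markers held in WT replicates 1 and 2. B cell markers held 0.128% to 0.636%. No marker of the endothelial or pan-leukocyte list was at 0 in any library. Which cells of the isolates gave the interferon transcripts was not tested. Alveolar macrophage markers held 2.19% of counts in WT replicate 2 and 0.231% to 0.687% in the others. Tet2 itself had 4018, 5142 and 4130 counts in WT and 4608 and 5188 in TET2KO, which does not check the deletion, since the deleted exons are unknown. In bulk RNA, fewer cells of a type and less RNA per cell cannot be told apart.

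With TMM scaling most of the 53 genes were modestly higher in the TET2KO libraries, and none passed the correction. Of the 53, 44 had a log2 fold change (TET2KO relative to WT) above 0 and 9 below. The median was 0.38, where the median of all genes tested was -0.08, and single genes ranged from 0.94 for Oasl2 to -0.51 for Oas1a. These signs depend on scaling. With libraries scaled on the endothelial markers in place of TMM, the median of all genes moved to -0.84 and the median of the members to -0.36. Of the 53, 10 were then above 0, against 8.51% of all genes (41.6% with TMM). Medians with endothelial scaling given below for each role stand beside that -0.84 for all genes. Scaled on pan-leukocyte markers, the 2 medians were 0.41 and 0.85. Relative to the median of all genes, 49 of the 53 members were higher with TMM, 48 with endothelial and 47 with leukocyte scaling. A change of scaling moves all genes nearly alike, so these counts were bound to be close.

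After Benjamini-Hochberg adjustment edgeR's quasi-likelihood F test called 0 of the 53 genes, and 0% of all genes. The lowest adjusted p of a member was 0.778. DESeq2 called 0 members and 0.116% of all genes, and limma-voom 0 members. At an unadjusted p under 0.05 edgeR counted 4 members (7.55%) where the share of all genes was 5.69%, limma-voom 4 and DESeq2 3. For 14 members (26.4%) the lower TET2KO value exceeded the highest WT value, which held for 12.4% of all genes. For 0 members did both TET2KO values fall under the lowest WT value, against 12.4% of all genes. Without WT replicate 3 the counts were 17 members at an unadjusted p under 0.05 by edgeR, where all genes gave 7.35%, and 30 members above without overlap, where all genes gave 18.9%. Leaving out TET2KO replicate 1 gave 0 members at the unadjusted threshold (3.33% of all genes), and leaving out TET2KO replicate 2 or WT replicate 1 gave 2 each (1.31% and 3.73% of all genes). Leaving out WT replicate 2 gave 7, where the share of all genes was 9.98%. Without TET2KO replicate 2, 37 members lay above without overlap, against 20.6% of all genes. With WT replicate 1, WT replicate 2 or TET2KO replicate 1 left out, 15 to 17 members did, against 17.19% to 20.96% of all genes.

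**Figure D1:**
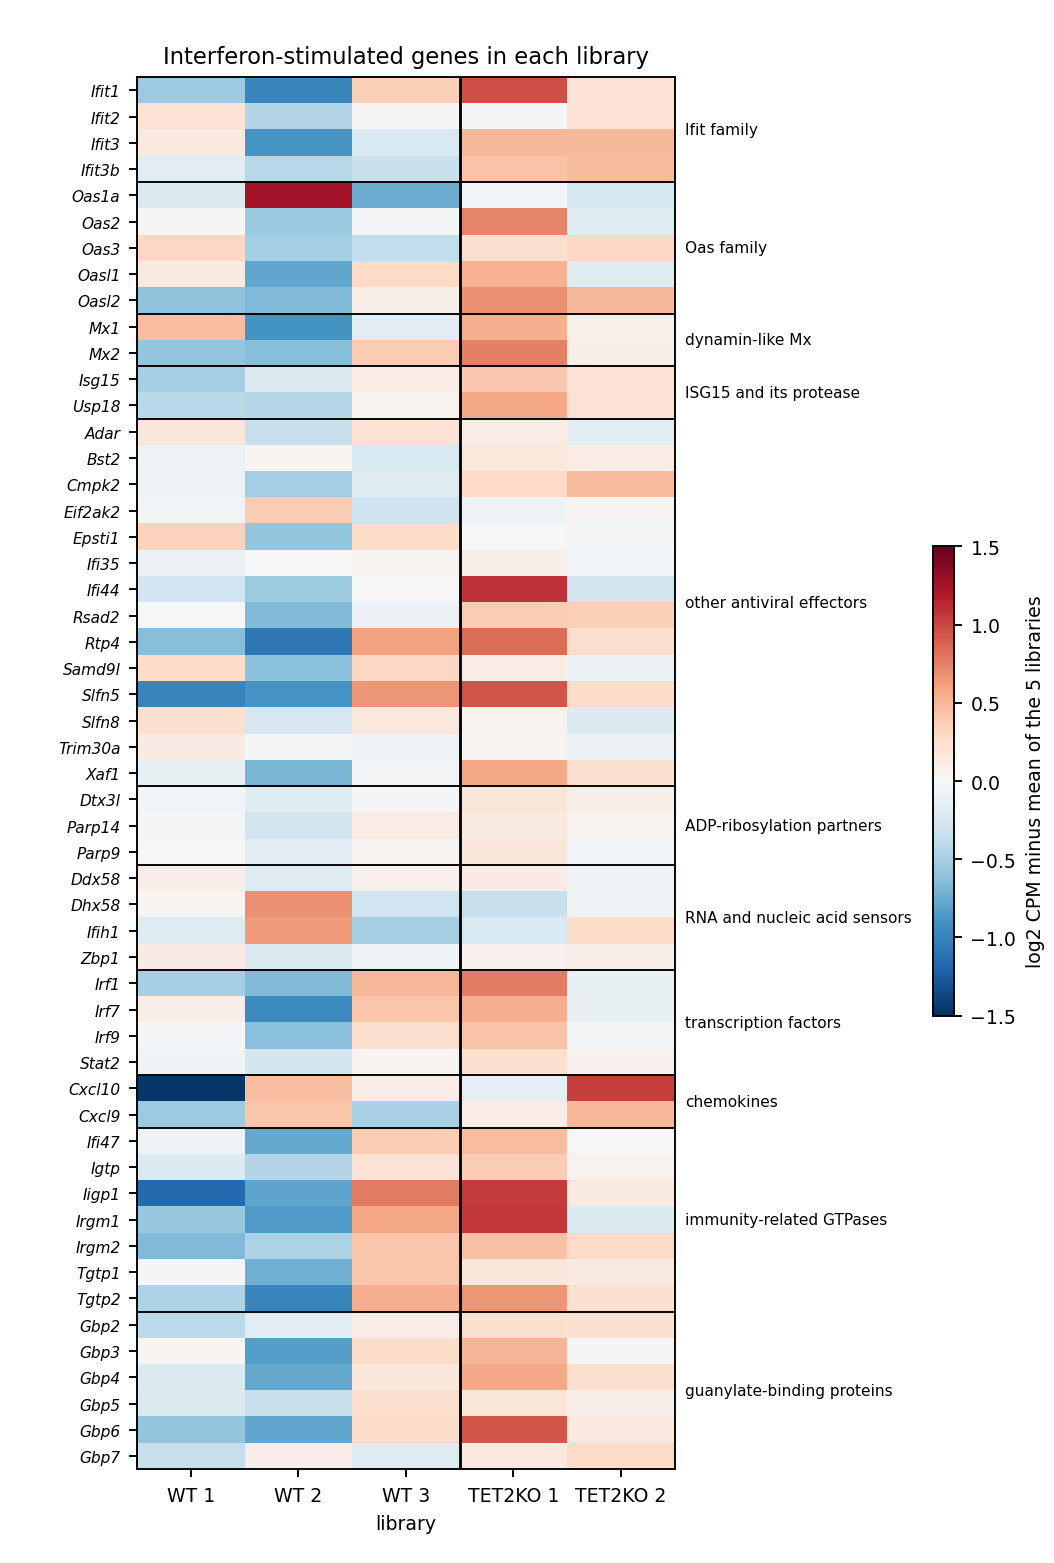
Log2 CPM (TMM-scaled) of the 53 genes, less each gene's mean over the 5 libraries, with genes in rows by role and libraries in columns. Red is above and blue below the gene's mean; the column of WT replicate 2 is the lowest for 38 genes and that of TET2KO replicate 1 the highest for 33, and WT replicate 3 is red for most GTPases.

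The libraries did not differ evenly within a genotype. TET2KO replicate 1 was the highest of the 5 libraries for 33 members and TET2KO replicate 2 for 6. Of the 18727 genes tested, TET2KO replicate 1 was the highest for 2453 and TET2KO replicate 2 for 2999. WT replicate 2 was the lowest for 38 members (71.7%), where it was the lowest for 32.9% of all genes. The mean log2 CPM of the members, less each gene's own mean, was -0.19, -0.40 and 0.10 for WT (replicates 1 to 3) against 0.37 and 0.12 for TET2KO (replicates 1 and 2). The endothelial markers, measured the same way, lay at -0.38, -0.58, 0.02, 0.42 and 0.52 in that order, and the pan-leukocyte markers at 0.15, 0.36, -0.04, -0.23 and -0.24. B cell markers lay at 0.50, -1.18, 0.83, 0.26 and -0.41, and T and NK cell markers at 0.44, -0.83, 0.35, 0.27 and -0.23, so both were lowest in WT replicate 2, as were most members. Epithelial and mesenchymal markers lay at -0.06, -0.14, -0.76, 0.22 and 0.73, with 12 of 14 above 0 and a median log2 fold change of 0.81. WT replicate 3 thus lay close to TET2KO replicate 2 in the interferon genes. The part of cell composition in these differences was not tested.

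**Figure D2:**
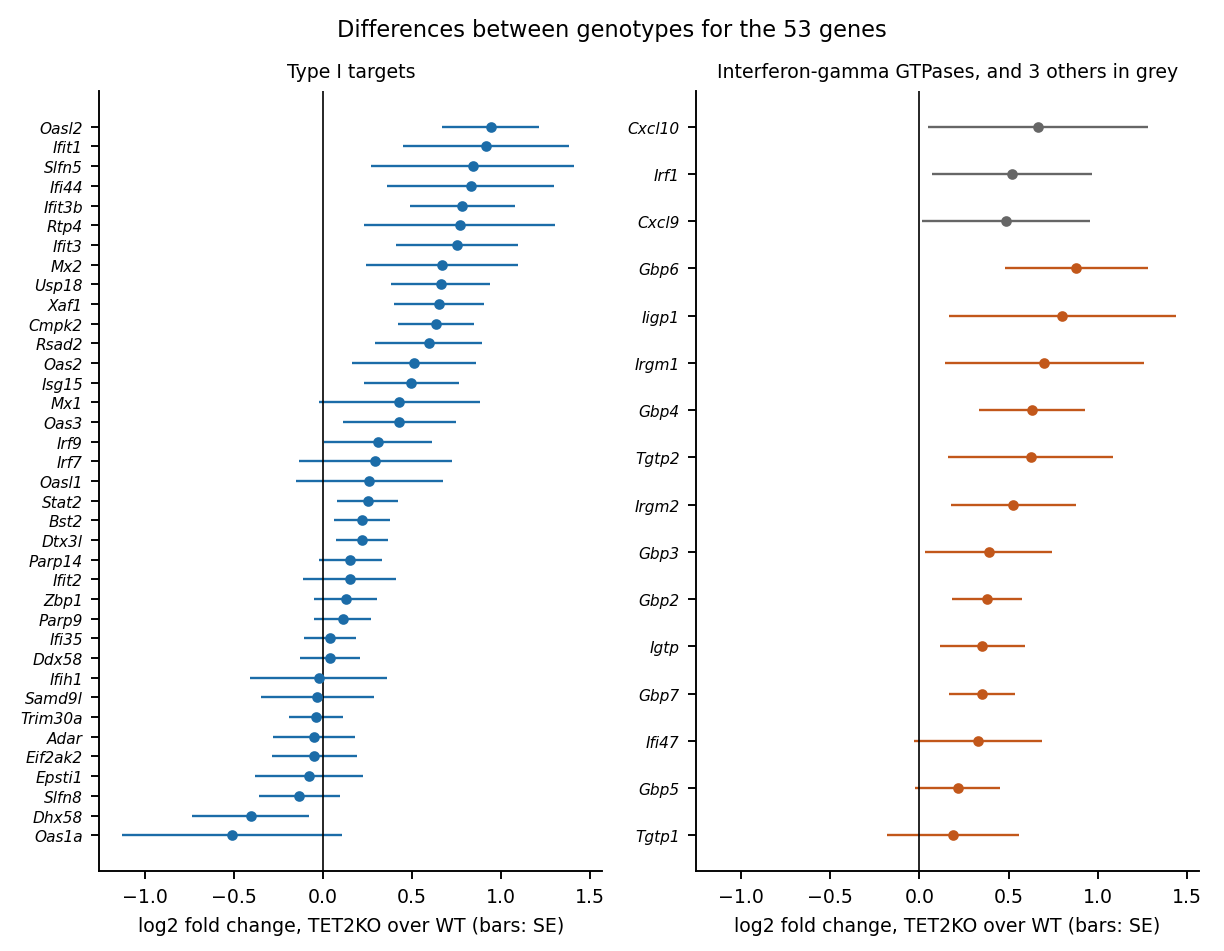
Log2 fold change of TET2KO over WT with TMM scaling for each of the 53 genes, with bars for 1 SE, type I targets on the left and GTPases (orange) with Irf1, Cxcl9 and Cxcl10 (grey) on the right. The 13 GTPases all lie right of 0, between 0.19 and 0.88, and 28 of the 37 type I targets do. With endothelial scaling both class medians lie left of 0, at -0.32 and -0.44, where the median of all genes is -0.84.

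The Ifit genes encode proteins that bind foreign RNA and block its translation. Their median log2 fold change was 0.77 (0.01 with endothelial scaling), and all 4 were above 0 with TMM scaling. Ifit3b was at 1.23, 1.01 and 1.08 CPM in WT against 1.87 and 1.94 CPM in TET2KO, from only 30 to 62 counts a library. Both TET2KO values lay above all WT values, a log2 fold change of 0.78 (SE 0.30, edgeR adjusted p = 0.856). Ifit3 was at 6.72, 3.28 and 5.18 CPM in WT against 8.51 and 8.54 CPM in TET2KO. Its groups did not overlap either, and its log2 fold change was 0.75 (SE 0.34). Ifit1 was at 5.25, 3.85 and 9.84 CPM in WT against 15.0 and 8.86 CPM in TET2KO. Here WT replicate 3 exceeded TET2KO replicate 2, so the groups overlapped around a log2 fold change of 0.92 (SE 0.47), which became 1.42 with WT replicate 3 left out and 0.49 with TET2KO replicate 1 left out. Ifit2, without an ISRE match in its window, lay at 7.70 to 12.2 CPM in WT against 10.4 and 12.2 CPM in TET2KO. Ifit3 and Ifit3b share 31.7% and 27.4% of their 100-base words, so reads may have been split between them.

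The Oas genes encode synthetases of oligoadenylates, which activate an RNase that degrades viral RNA, and relatives of these enzymes. The median of the 5 was 0.43 (-0.35 with endothelial scaling). Oasl2 (chromosome 5, 114896936 to 114912234, plus strand) had the smallest p of all members. It was at 19.1, 18.3 and 30.6 CPM in WT against 46.6 and 40.5 CPM in TET2KO. Both TET2KO libraries lay above WT replicate 3, the highest WT library, and the log2 fold change was 0.94 (SE 0.27, edgeR adjusted p = 0.778). Oas2 lay at 11.8, 7.84 and 11.5 CPM in WT against 19.3 and 10.2 CPM in TET2KO, so that TET2KO replicate 1 was high and replicate 2 was not. Oas3 overlapped too, at 4.63 to 8.26 CPM in WT against 7.94 and 8.23 CPM in TET2KO. Oas1a went the other way through 1 library. It was at 8.61, 23.7 and 5.87 CPM in WT against 9.66 and 8.23 CPM in TET2KO, a log2 fold change of -0.51 (SE 0.62) that became 0.34 without WT replicate 2. Oas1a shares 40.9% of its 100-base words with other genes, mainly Oas1g, so its reads are uncertain.

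Among the other first-line effectors, Mx1 and Mx2 encode dynamin-like GTPases that trap viral particles, and their median was 0.55 (-0.17 with endothelial scaling). Mx2 was at 3.12, 3.01 and 6.16 CPM in WT against 7.999 and 5.04 CPM in TET2KO. Mx1 was at 5.01, 1.93 and 3.21 CPM in WT against 5.28 and 3.82 CPM in TET2KO, and both genes overlapped between groups. Isg15, a ubiquitin-like protein attached to other proteins after interferon, and Usp18, the protease that removes it and restrains the type I receptor, both had groups without overlap (median 0.58, or -0.16 with endothelial scaling). Isg15 was at 4.69, 5.71 and 7.18 CPM in WT against 8.84 and 7.70 CPM in TET2KO, a log2 fold change of 0.50 (SE 0.27). Usp18 was at 4.17, 4.12 and 5.78 CPM in WT against 8.36 and 6.48 CPM in TET2KO, a log2 fold change of 0.66 (SE 0.28). In both, WT replicate 3 was the nearest WT library to the TET2KO values.

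The 14 remaining antiviral effectors were mixed, with 8 above 0 and 6 below and a median of 0.13 (-0.65 with endothelial scaling). Cmpk2, a mitochondrial nucleotide kinase, was at 11.4, 8.41 and 10.6 CPM in WT against 14.8 and 16.7 CPM in TET2KO. Its WT values were close together, and its log2 fold change was 0.63 (SE 0.21, edgeR adjusted p = 0.813). Rsad2, its neighbour on chromosome 12 and the source of viperin, was at 3.96, 2.47 and 3.72 CPM in WT against 5.13 and 5.07 CPM in TET2KO, also without overlap. Xaf1, a partner of an inhibitor of apoptosis, was at 40.8, 27.3 and 43.6 CPM in WT against 65.1 and 51.8 CPM in TET2KO. Both TET2KO values were above WT, with a log2 fold change of 0.65 (SE 0.25, edgeR adjusted p = 0.867). Oasl2, Cmpk2 and Xaf1, which with Ifit3b make up the 4 members at an unadjusted p under 0.05, have neither motif in their promoter windows. Neither motif was found in 12 of the 41 members with a window (29.3%) and in 87.1% of all genes with a window.

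Slfn5 and Rtp4 followed a different pattern. Slfn5, a schlafen protein and the type I target with the highest mean TPM (185), was at 147, 158 and 462 CPM in WT against 561 and 354 CPM in TET2KO. WT replicate 3 exceeded TET2KO replicate 2, and the log2 fold change of 0.84 came with an SE of 0.57. It became 1.61 with WT replicate 3 left out and 0.47 with TET2KO replicate 1 left out. Slfn5os, on the opposite strand over 8.84% of the exonic bases of Slfn5, had 283 counts in all against 53319. Rtp4, an antiviral receptor transporter protein, was at 6.55, 4.83 and 15.6 CPM in WT against 18.4 and 12.3 CPM in TET2KO, again with WT replicate 3 between the TET2KO libraries, and its log2 fold change of 0.77 was 1.46 without WT replicate 3. Bst2, the tetherin that holds budding virus at the cell surface, had the second highest mean TPM of the type I targets (159) and lay at 36.2 to 43.3 CPM in WT against 47.3 and 45.7 CPM in TET2KO. Ifi44, the lowest type I target by mean TPM (1.64), was at 2.17, 1.82 and 2.67 CPM in WT against 5.71 and 2.19 CPM in TET2KO, so only TET2KO replicate 1 was high. Adar, Eif2ak2, Epsti1, Samd9l, Slfn8 and Trim30a were the 6 below 0, and in each of them the groups overlapped.

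Partners in ADP-ribosylation differed little. Dtx3l, a ubiquitin ligase that works with Parp9, lay at 50.2 to 55.9 CPM in WT against 64.6 and 60.5 CPM in TET2KO, without overlap but with a log2 fold change of only 0.22 (SE 0.15). Parp14 was at 125, 105 and 137 CPM in WT against 140.2 and 132 CPM in TET2KO, and Parp9 at 42.8 to 49.1 CPM in WT against 54.2 and 46.8 CPM in TET2KO. The median of the 3 was 0.15 (-0.60 with endothelial scaling). Dtx3l and Parp9 overlap on opposite strands over 458 exonic bases.

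The sensors of foreign nucleic acid had a median of 0.01 (-0.80 with endothelial scaling), with 2 of 4 above 0. Ddx58, which encodes RIG-I, was at 84.0, 69.2 and 83.0 CPM in WT against 86.6 and 75.1 CPM in TET2KO. Zbp1, a sensor that can trigger necroptosis, lay at 19.2 to 24.2 CPM in WT against 23.2 and 23.8 CPM in TET2KO. Dhx58, which encodes LGP2, was at 18.8, 29.7 and 15.0 CPM in WT against 14.5 and 17.5 CPM in TET2KO, a log2 fold change of -0.41 (SE 0.33). Ifih1, which encodes MDA5, was at 30.0, 53.9 and 24.5 CPM in WT against 29.3 and 41.8 CPM in TET2KO. WT replicate 2 was the highest library for Dhx58 and Ifih1, and for Oas1a and Eif2ak2, a pattern of 4 members (7.55%) and of 34.98% of all genes. It is the library with the most alveolar macrophage transcripts, and their part in these 4 genes was not tested.

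The transcription factors of the response had a median of 0.30 (-0.40 with endothelial scaling), and in all 4 WT replicate 3 was the highest and WT replicate 2 the lowest WT library. Stat2, a subunit of the ISRE-binding complex, was at 102, 87.8 and 109 CPM in WT against 126 and 111 CPM in TET2KO, with a log2 fold change of 0.25 (SE 0.17) and no overlap. Irf9, its DNA-binding partner, was at 84.4, 55.1 and 101 CPM in WT against 115 and 83.6 CPM in TET2KO. Irf1, the member with the highest mean TPM (399.6), was at 304, 270.1 and 604 CPM in WT against 729.6 and 396 CPM in TET2KO. WT replicate 3 lay above TET2KO replicate 2, and the log2 fold change was 0.52 (SE 0.45), or 1.00 without WT replicate 3 and 0.013 without TET2KO replicate 1. Irf7, the amplifier of type I interferon production, lay at 20.4 to 52.5 CPM in WT against 57.4 and 36.6 CPM in TET2KO.

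The chemokines Cxcl9 and Cxcl10, which draw T cells through CXCR3, had a median of 0.58 (-0.23 with endothelial scaling). Cxcl10 was at 4.62, 17.6 and 13.7 CPM in WT against 11.6 and 26.4 CPM in TET2KO, so that TET2KO replicate 2 was the high library and the groups overlapped. Cxcl9 had 13 to 32 counts a library, lay between 0.455 and 1.00 CPM, and was the lowest member by mean TPM (0.80).

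The immunity-related GTPases coat or regulate the vacuoles of intracellular pathogens. All 7 had a log2 fold change above 0 with TMM scaling (median 0.53). With endothelial scaling 2 of 7 did (median -0.17), against 8.51% of all genes. With TMM scaling the groups separated in none, where 12.4% of all genes had TET2KO above WT and 12.4% below. Iigp1 was at 22.0, 28.5 and 84.9 CPM in WT against 103 and 54.5 CPM in TET2KO. WT replicate 3 was 3.36 times the mean of the other WT libraries, and the log2 fold change of 0.80 had an SE of 0.64. It became 1.66 with WT replicate 3 left out and 0.27 with TET2KO replicate 1 left out. Tgtp2 was at 17.2, 12.02 and 34.6 CPM in WT against 37.7 and 27.9 CPM in TET2KO. Irgm2, a regulator of the family, was at 18.6, 21.1 and 39.2 CPM in WT against 39.9 and 35.9 CPM in TET2KO. In both genes the library labelled WT replicate 3 fell between the TET2KO libraries, and WT replicates 1 and 2 lay below those 3 libraries. Without it the log2 fold change was 1.199 in place of 0.62 for Tgtp2 and 0.96 in place of 0.53 for Irgm2. Irgm1 was at 68.3, 56.4 and 152 CPM in WT against 212 and 87.5 CPM in TET2KO. Igtp, the GTPase with the highest mean TPM (84.1), was closer at 42.3, 36.0 and 56.0 CPM in WT against 63.5 and 50.7 CPM in TET2KO, a log2 fold change of 0.35 (SE 0.24). Tgtp1, the lowest by mean TPM (6.70), lay at 3.65 to 8.10 CPM in WT against 6.82 and 6.67 CPM in TET2KO. Tgtp1 and Tgtp2 share 73.2% and 76.8% of their 100-base words, so the division of reads between them is uncertain.

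The guanylate-binding proteins act on the same vacuoles and on bacterial membranes. All 6 were above 0 with TMM scaling (median 0.38). With endothelial scaling 1 of 6 was (median -0.34), against 8.51% of all genes. With TMM scaling 3 had groups without overlap, all with TET2KO above WT, which held for 12.4% of all genes. Gbp4 was at 66.4, 44.9 and 85.9 CPM in WT against 114 and 90.1 CPM in TET2KO, a log2 fold change of 0.63 (SE 0.30). Gbp2 was at 36.9, 43.3 and 52.6 CPM in WT against 57.8 and 57.3 CPM in TET2KO, a log2 fold change of 0.38 (SE 0.19). Gbp7, the other without overlap, lay at 46.8 to 63.9 CPM in WT against 66.2 and 72.7 CPM in TET2KO. Gbp6 had the largest fold change of the class but overlapped, at 12.4, 10.8 and 22.4 CPM in WT against 35.4 and 20.6 CPM in TET2KO (0.88, SE 0.40). Gbp6 shares 64.5% of its 100-base words with other genes, mainly Gm43302, which had 0 counts in all.

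Type I targets and GTPases were compared in each library. With TMM scaling the median log2 fold change was 0.26 for the 37 type I targets and 0.39 for the 13 GTPases, a difference of -0.13. It was 0.61 for a narrower set of 18 type I targets, which turned the difference to 0.23. With endothelial scaling the medians were -0.44 and -0.32, where that of all genes was -0.84. The mean log2 CPM of the type I targets less that of the GTPases, each gene first centred on its own mean, was 0.30, 0.24 and -0.30 in WT and -0.19 and -0.04 in TET2KO. Its mean was 0.08 ± 0.33 in WT (SD, n = 3) and -0.12 ± 0.11 in TET2KO (SD, n = 2). Both TET2KO values lay below WT replicates 1 and 2 and above WT replicate 3, so the place of TET2KO in the WT range rests on that 1 library. Without WT replicate 3 the medians were 0.36 for the type I targets and 0.67 for the GTPases, a difference of -0.30. Without WT replicate 1 the difference was 0.014. Within WT, replicate 3 was the highest WT library for 12 of 13 GTPases and 19 of 37 type I targets. It exceeded each other WT library by over 1.5 times for 5 GTPases and 5 type I targets, and with Irf1 for 11 members (20.8%), where 5.96% of all genes did so.

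**Figure D3:**
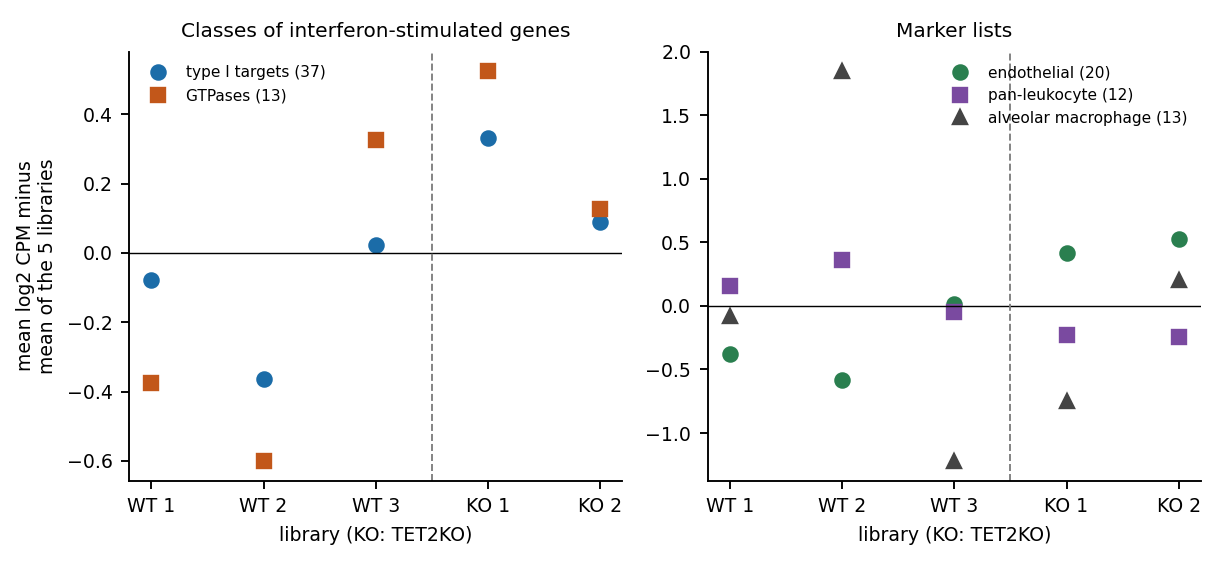
Mean log2 CPM per library, less each gene's mean over the 5 libraries, for the 2 classes of interferon-stimulated genes (left) and for 3 marker lists (right), with a dashed line between genotypes. The GTPases of WT replicate 3 (0.32) lie above those of TET2KO replicate 2 (0.13), and the alveolar macrophage markers stand at 1.85 in WT replicate 2.

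In the authors' deposited table, where WT replicate 3 stands with TET2KO, 8 of the 51 members with an adjusted p were under 0.05, against 2.16% of all genes. They were Slfn5, Rtp4, Ifit1 and Oasl2 of the type I targets and Iigp1, Tgtp2, Irgm2 and Gbp6 of the GTPases. The authors' deposited table gives Slfn5 a log2 fold change of 1.61 (adjusted p = 2.478e-05), where the labelled groups gave 0.85 from the same normalized signal. In the authors' deposited table Iigp1 is at 1.69 (adjusted p = 0.0007552), where the labelled groups gave 0.81. Other members are lower in the authors' deposited table: Cmpk2 is at 0.52 in the authors' deposited table and at 0.65 by the labelled groups, and Ifit3b at 0.56 and 0.80. The median of the 13 GTPases in the authors' deposited table is 0.70 and that of the type I targets 0.26. These values share their libraries with the labelled comparison and are no independent check of it.

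**Figure D4:**
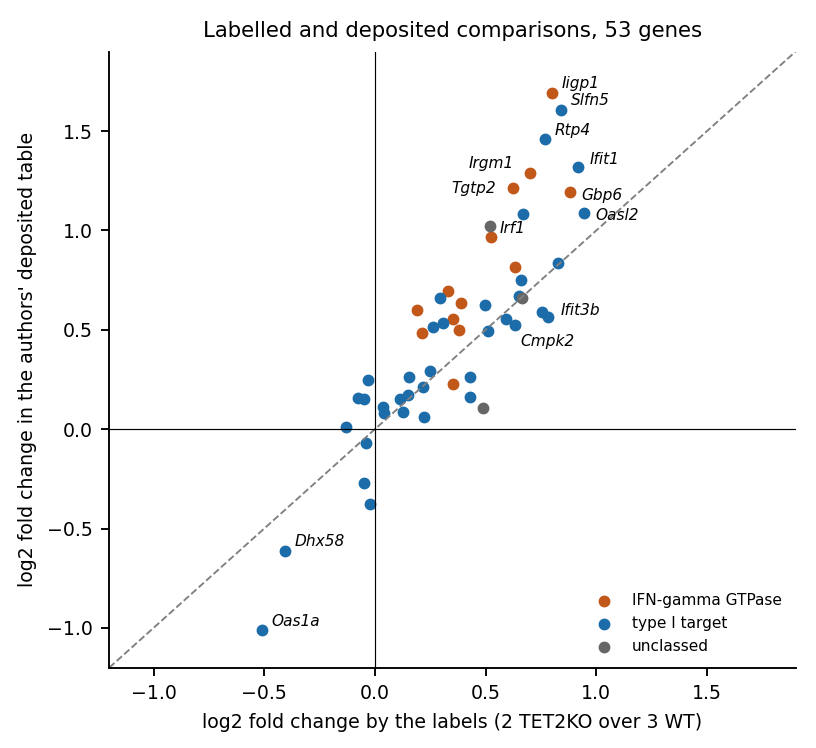
Log2 fold change of the 53 genes in the authors' deposited table (vertical) against the edgeR log2 fold change of the labelled groups (horizontal), coloured by class, with the line of equality dashed. Iigp1, Slfn5 and Rtp4 lie far above the line, and Cmpk2 and Ifit3b below it.

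No gene upstream of the response passed edgeR's correction, which no gene in the whole test passed. Of 21 interferon ligands 6 had any count and only Ifng was tested, with 49, 36 and 31 counts in WT and 29 and 61 in TET2KO. Ifnb1, the type I ligand interferon-beta, had 0, 1 and 1 counts in WT and 3 and 8 in TET2KO, too few to test. Ifnk, another type I ligand too low to test, had 6, 11 and 3 counts in WT and 5 and 1 in TET2KO. Of 9 receptor chains and kinases 4 were above 0, with a median of -0.05. At an unadjusted p under 0.05 edgeR counted 0 of the 9, where the share of all genes was 5.69%. Ifnar1 was at 161, 112 and 252 CPM in WT against 209 and 162 CPM in TET2KO, and Ifngr1 at 316, 251 and 404 CPM in WT against 343 and 313 CPM in TET2KO. The groups overlapped in all 9 receptor chains and kinases and in Ifng, Ifnk, Ifnab, Ifnz and Ifnl3. Of the ligands with a count only Ifnb1 had both TET2KO values above WT, which held for 12.4% of all genes tested.

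Of 14 genes that induce interferon 3 were above 0 (median -0.21), and Tmem173, which encodes the adaptor STING, was at 44.1, 40.8 and 40.7 CPM in WT against 38.1 and 31.5 CPM in TET2KO. Tmem173, Ticam1 and Tbk1 were the 3 of these genes with both TET2KO values below WT, and 0 lay above. Each direction held for 12.4% of all genes. Of 12 genes in a list of restraints and other parts of the response 5 were above 0 (median -0.07). Isg20, Herc6 and Ube2l6 of this list are interferon-induced genes that are not restraints. Socs3, an inhibitor of JAK signalling, was at 345, 367 and 693 CPM in WT against 846 and 785 CPM in TET2KO, a log2 fold change of 0.80 (SE 0.35, edgeR adjusted p = 0.875). Its WT replicate 3 was again nearest to TET2KO. In this list 3 genes (Socs3, Herc6 and Isg20) lay above WT without overlap and 3 below, where all genes gave 12.4% in each direction. Among those below was Ptpn6, a phosphatase that acts on JAK signalling. It was at 306, 281 and 252 CPM in WT against 224 and 199 CPM in TET2KO (log2 fold change -0.40, SE 0.18). The pan-leukocyte markers had a median of -0.42, and the part of leukocytes in the Ptpn6 value was not tested. Both lists had 0 genes past edgeR's correction, as did the whole test. Each also had 0 at an unadjusted p under 0.05, where the share of all genes was 5.69%.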

How the data were processed

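Poly(A) RNA-seq libraries from lung endothelial cell isolates of 3 WT and 2 TET2KO samples were grouped by the genotype in the labels. The submitters' processing notes name Trimmomatic 0.36, STAR 2.5.2b, Subread 1.5.2 with featureCounts, DESeq2 without a version, and the mouse build GRCm38. Whether reads were counted by strand is not given in the sources used here. The authors deposited whole-number read counts for 49315 gene identifiers, of which 174 have no symbol, and TPM values, which are scaled by gene length and library total. The authors also deposited a comparison table that, per the file headers, holds a log2 fold change, a p-value and an adjusted p for each gene, with a normalized signal for each library.

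Counts were fitted over all genes with edgeR 4.0.16 in R 4.3.3 (quasi-likelihood F test, TMM scaling, filterByExpr, genotype as the only term), with Benjamini-Hochberg adjustment over the 18727 genes tested and a threshold of 0.05. The standard error (SE) was taken as the absolute log2 fold change over the root of F. Log2 CPM used a prior count of 2. Total counts were 27346804 to 35440257 per library, and edgeR's biological coefficient of variation was 0.339. The smallest count of any member was 13, and at such low counts counting itself adds to the spread between libraries. The alternatives were DESeq2 1.42.0, limma-voom (limma 3.58.1), RLE, upper quartile and no scaling factors, scaling on endothelial or on pan-leukocyte markers, a filter of 1 CPM in 2 libraries or none, limma on log2(TPM + 1) and log2(TPM + 0.1), the replicate number as a block, each library left out, and a narrower set of 18 type I targets. Members, classes, lists and alternatives were chosen with earlier results of these data known. Values per library are given for up to 3 members of each role with the smallest p, for the highest and lowest member by mean TPM in each class, for members called in the authors' deposited table and for the largest fall. Other values in the text were chosen after they were seen.

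Gene positions came from GENCODE mouse release 21 and promoter windows from RefSeq (GRCm38.p6). No set test was run.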

Additional observations from a re-analysis of the deposited data

How the results depend on the processing

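No member was called under any alternative. Of 577 values of the 34 members named with fold changes, 546 kept their direction, and 24 of the 31 that turned did so with endothelial scaling. All genes called numbered 20 by DESeq2. Scaled on endothelial markers, medians were -0.36 for members, -0.44 for type I targets and -0.32 for GTPases. Scaled on pan-leukocyte markers they were 0.85, 0.71 and 0.87, and 31 members (58.5%) were without overlap, against 42.7% of all genes. In all 31 TET2KO lay above WT, as in 42.5% of all genes. With endothelial scaling 20 members (37.7%) were without overlap, against 57.1% of all genes. In all 20 TET2KO lay below WT, as in 56.0% of all genes. The type I median was 0.50 on log2(TPM + 0.1), 0.46 on log2(TPM + 1) and 0.61 for the narrow set, where the class difference was 0.23. The members' median less that of all genes stayed between 0.29 and 0.57 under every alternative. The scaling alternatives cannot test this difference, since each moves all genes by about the same amount.

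With endothelial scaling the log2 fold changes that turned were Cmpk2 -0.13, Cxcl10 -0.13, Cxcl9 -0.33, Ddx58 -0.72, Dtx3l -0.55, Gbp2 -0.37, Gbp4 -0.078, Igtp -0.37, Irf1 -0.15, Irf9 -0.41, Irgm2 -0.17 and Isg15 -0.24. The others were Mx1 -0.32, Mx2 -0.011, Oas2 -0.22, Oas3 -0.35, Parp14 -0.60, Parp9 -0.65, Rsad2 -0.15, Stat2 -0.50, Tgtp2 -0.033, Usp18 -0.069, Xaf1 -0.081 and Zbp1 -0.64. With leukocyte scaling Dhx58 turned to 0.17 and Oas1a to 0.17.

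With each library left out in turn, members without overlap numbered 17 at the least (TET2KO replicate 1 or WT replicate 1 left out), 31 without WT replicate 3 and at most 38 (TET2KO replicate 2 left out), where fewer libraries make overlap rarer. Without TET2KO replicate 1, 16 members lay above WT (30.19%, against 20.96% of all genes) and 1 below (against 22.83%). Without WT replicate 1 these were 17 (32.08%, against 17.19%) and 0 (against 16.28%). Without WT replicate 2 they were 15 (28.30%, against 20.36%) and 4 (against 24.24%). Without WT replicate 3, 1 member lay below (against 22.96%), as without TET2KO replicate 2 (against 20.22%). The members' median ran from 0.18 to 0.55. Cxcl10 ran from -0.045 (without TET2KO replicate 2) to 1.14, Ddx58 from -0.069 (without TET2KO replicate 1, and -0.02 without WT replicate 2) to 0.14, Oas1a from -0.83 to 0.34 (without WT replicate 2) and Oas2 from -0.026 (without TET2KO replicate 1) to 0.90. Where a TET2KO library was left out, the remaining one was assumed to vary like the WT libraries. The cause of these changes was not tested.

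With the replicate number as a block the members' median was 0.53, 24 members had an unadjusted p under 0.05 (15.6% of all genes) and 0 were called. The labels do not say that a number pairs samples, and only numbers 1 and 2 are shared. Deviations of the same-numbered libraries correlated at 0.22 for number 1 and 0.49 for number 2, but WT replicate 3 and TET2KO replicate 1 also did so at 0.45. With 2 TET2KO libraries their deviations mirror each other, so these values do not show a pairing.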

Other observations

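A further 59 interferon-induced genes outside the 53 were tested, from a list chosen with earlier results of these data known. They were balanced, with 34 above 0 and 25 below, a median log2 fold change of 0.03 and 0 past edgeR's correction. At an unadjusted p under 0.05 edgeR counted 3 of them (5.08%, where all genes gave 5.69%). Ifitm3, an endosomal protein that blocks virus entry, was at 76.4, 59.0 and 109 CPM in WT against 143 and 129 CPM in TET2KO, with a log2 fold change of 0.74 (SE 0.28, edgeR adjusted p = 0.856). Ifitm2, its close relative, was at 54.4, 50.9 and 51.1 CPM in WT against 65.9 and 76.7 CPM in TET2KO. Phf11d, a PHD finger gene, was at 7.53, 8.92 and 10.9 CPM in WT against 14.5 and 15.3 CPM in TET2KO. In each of the 3 the groups did not overlap, as in 7 of the 59 with TET2KO above WT (11.9%, where all genes gave 12.4%). These 3 were picked by their p, which favours groups without overlap.

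The summed TPM of the 53 members was 1920, 1291 and 2582 in WT and 3227 and 2428 in TET2KO, so WT replicate 3 exceeded TET2KO replicate 2 in the total as well. Irf1, Cxcl9 and Cxcl10 together gave 275, 200.4 and 538 TPM in WT and 691 and 408 TPM in TET2KO, most of it from Irf1.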
